A study of Drosophila melanogaster with 17 samples.

Results

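The cytosolic ribosomal protein genes of Drosophila encode the proteins of the 80S ribosome, and their messenger RNAs were followed here in sorted progenitor cells of the adult midgut under 4 manipulations of basic helix-loop-helix (bHLH) transcription factors. The members were all genes whose symbol began with RpL or RpS in the authors' annotation, joined by FlyBase identifier to the counts. There were 86 of them among 17807 counted genes, 51 for the large (60S) subunit and 35 for the small (40S) subunit, as read from the symbol alone. The 51 include RpLP0-like and RpL24-like, which are counterparts of yeast assembly factors. The genes of the mitochondrial ribosome, whose symbols begin with mRp, were not included.

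Ribosomal proteins assemble with ribosomal RNA in the nucleolus, and most of them are needed in equal number, since each ribosome carries 1 copy of nearly every one. Their genes are among the most strongly transcribed in growing cells, and in flies the growth regulators Myc and TOR signalling act on them and on the factors that build ribosomes. Several of these genes exist as pairs in which 1 copy is used in all tissues and the other mainly in the germ line.

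All flies carried esg-Gal4, UAS-GFP and tub-Gal80[ts]. The esg-Gal4 driver is active in intestinal stem cells and enteroblasts, and the heat-sensitive Gal80 holds it off at 18 °C and releases it at 29 °C, where adults stayed for 2 days. Controls carried no further transgene named in the labels. The others added UAS-da (daughterless, the fly E protein), UAS-da-RNAi, UAS-da:da (a tethered Da dimer) or UAS-scute (a proneural partner of Da). Batch 1, read as single reads of 50 nt, held 3 control, 2 da overexpression and 3 da knock-down libraries. Batch 2, read as paired reads of 150 nt, held 3 control, 3 da:da and 3 scute libraries. Each library came from about 100 pooled midguts and 20000 to 40000 sorted cells, whose RNA was amplified before library preparation.

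Between 33889877 and 40868714 counts per library were assigned to genes in batch 1, and 47136298 to 66679229 in batch 2. Levels below are in CPM, counts divided by the library size and scaled to a common base. Unless stated otherwise the library size was adjusted with TMM, a method that centres the bulk of genes between libraries. The progenitor marker esg stood at 365 to 973 CPM over all libraries. The stem cell marker Dl averaged 32.7 to 164 CPM by group, and the enteroblast markers klu and Su(H) 62.0 to 311 and 4.88 to 32.6 CPM. The transcript da averaged 112 CPM in the batch 1 controls, 871 with UAS-da and 27.9 with the RNAi, and sc averaged 1.77 CPM in the batch 2 controls and 2062 CPM with UAS-scute. With UAS-da:da, da averaged 218 CPM against 77.5 CPM in its controls.

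Members took a large part of every library. Their share of counts was 31.8%, 32.6% and 36.8% in the batch 1 controls, 35.5% and 30.9% with da overexpression, and 35.8%, 38.8% and 37.8% with da knock-down. In batch 2 it was 26.1%, 24.3% and 27.4% in controls, 27.9%, 26.6% and 22.4% with da:da, and 19.9%, 19.2% and 15.4% with scute. The 3 scute libraries all lay below the controls and da:da libraries of their batch, while the knock-down libraries overlapped their controls.

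The ratio of large-subunit to small-subunit counts does not depend on library scaling. It was 1.30 to 1.35 in the batch 1 controls, 1.26 to 1.34 with da knock-down, and lower, at 1.25 and 1.21, in the 2 da overexpression libraries. In batch 2 it was 1.35 to 1.37 in controls, 1.32 to 1.33 with da:da and 1.28 to 1.30 with scute. Those 3 ranges did not overlap. Summed counts weigh abundant genes most, and RpL5, whose lower share with da overexpression is given below, is among them. The ratios are therefore no measure of a change common to a subunit. These ratios are descriptions with no test.

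**Figure D1:**
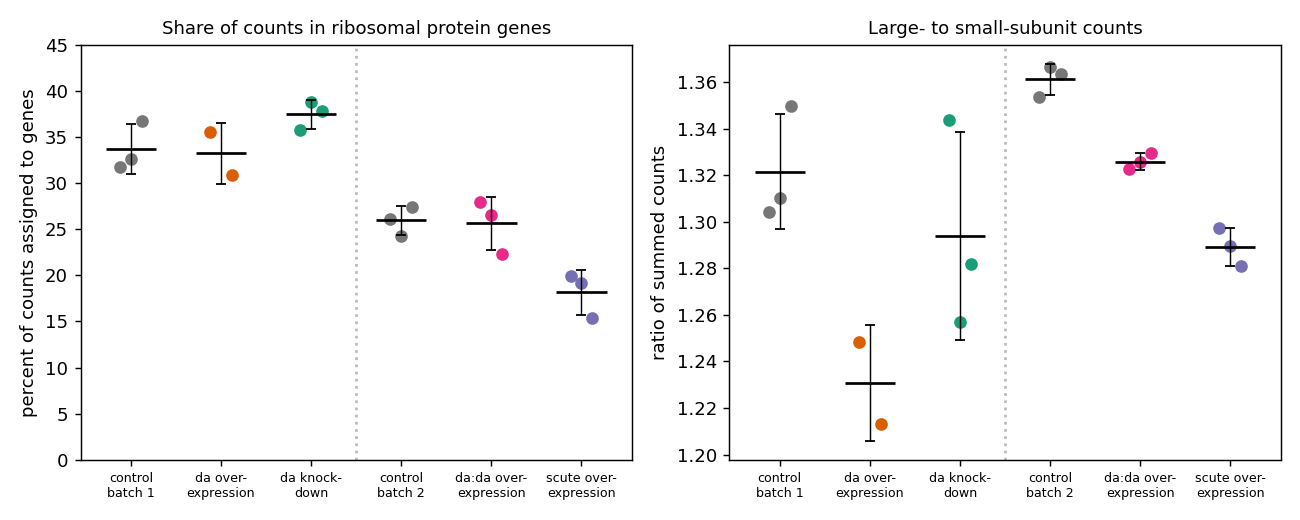
Share of gene-assigned counts in the 86 ribosomal protein genes (left, percent) and ratio of summed large-subunit to small-subunit counts (right, axis not starting at 0) in each library. Points are libraries, lines are group means and bars are 1 SD; the dotted line separates the batches. The scute libraries, at 15.4% to 19.9%, lie below the other libraries of batch 2.

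Levels within the set spanned several orders of magnitude once CPM of total counts were divided by exon length. RpL41, which encodes a very short basic peptide of the large subunit, led in both batches, with 27528 ± 2272 CPM per kilobase in batch 1 controls and 22239 ± 2185 in batch 2 controls (SD, n = 3). RpL23 was second in both, at 18799 ± 1992 and 9338 ± 536 CPM per kilobase. RpS23, a decoding-site protein of the small subunit, came next in batch 1 at 14811 ± 1072, and RpL27A came next in batch 2 at 8206 ± 497. The lowest were the paralogues RpS19b, at 3.85 ± 1.05 and 1.95 ± 0.133, RpS5b, at 0.680 ± 0.434 and 0.479 ± 0.113, and RpL37b, which had 0 to 2 counts per batch 1 control and 2 to 4 per batch 2 control. RpL37b was too low to be tested in batch 1, so 85 members were tested there and 86 in batch 2.

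Scute overexpression gave the broadest change. By edgeR's quasi-likelihood test, with adjusted p under 0.05 over all 14190 genes tested, 82 of 86 members fell and 4 rose, so that every member was called. Among all genes tested 22.2% were called lower and 22.8% higher. The median member changed by -0.99 on the log2 scale, against 0.05 for all genes tested, and the quartiles of the members were -1.11 and -0.86. The large subunit had 50 of 51 members lower, with a median of -1.03, and the small subunit 32 of 35, with a median of -0.91.

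The most abundant members were among those that fell. RpL41 stood at 7625, 7587 and 9094 CPM in controls and at 4244, 3877 and 3092 CPM with scute, a log2 change of -1.12 ± 0.18 (SE, adjusted p = 2.75e-04, edgeR). RpS23 stood at 6903, 6592 and 7436 CPM in controls and at 4621, 4445 and 3388 CPM with scute, a change of -0.75 ± 0.16 (adjusted p = 0.00251, edgeR). For both genes the groups did not overlap. The 2 small-subunit proteins whose symbols fall outside the rule also fell: sta, the fly RpSA, by 1.20 and Rack1, a signalling scaffold on the 40S head, by 0.97 on the log2 scale (adjusted p = 1.35e-04 and 1.02e-04, edgeR).

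The members that fell most were all counted with the large subunit by symbol. RpLP0-like is the fly counterpart of yeast Mrt4, an assembly factor that holds the place of the stalk protein P0 in nascent 60S particles. It was at 72.5, 66.5 and 64.1 CPM in controls and at 17.1, 17.6 and 15.3 CPM with scute, a log2 change of -2.02 ± 0.11 (adjusted p = 7.02e-08, edgeR). RpL34a was at 239, 245 and 282 CPM in controls and at 98.8, 78.0 and 54.9 CPM with scute, a change of -1.72 ± 0.20 (adjusted p = 1.65e-05, edgeR). RpLP2, an acidic protein of the ribosomal stalk, was at 3489, 3104 and 3971 CPM in controls and at 1736, 1606 and 967 CPM with scute, a change of -1.29 ± 0.22 (adjusted p = 4.62e-04, edgeR). In all of them each scute library lay below each control.

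The fall was spread over the genome. On the BDGP6.28 chromosomes, 14 of 14 members on X, 17 of 17 on 2L, 18 of 20 on 2R, 14 of 14 on 3L, 18 of 20 on 3R and the single member on chromosome 4 were called lower. Across the 86 members the change had a Spearman rank correlation of 0.01 with exon length and of 0.16 with the control level per kilobase, as a description over genes that share libraries.

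All 4 genes that rose with scute were the less abundant copy of a paralogue pair. RpL37b (2R:23100057-23100478, minus strand) had 4, 2 and 4 counts in controls and 80, 68 and 90 with scute. The pooled count ratio, corrected for TMM-scaled library size, was 16.5, with a 95% interval of 8.79 to 34.8 that leaves out differences between replicates. The interval treats counts as independent. Batch 2 was counted by mate, so both mates of a fragment can be counted and the interval is too narrow even for counting error. The fitted log2 change of this gene, 4.0 ± 0.69 (adjusted p = 4.74e-04, edgeR), depends on the prior count. No library of the controls or of da:da had more than 7 counts.

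RpS19b (3R:23932729-23933530, minus strand), a paralogue known for germ-line use, was at 1.33, 1.53 and 1.59 CPM in controls and at 5.08, 5.15 and 3.86 CPM with scute. Its log2 change was 1.66 ± 0.24 (adjusted p = 1.03e-04, edgeR). RpS5b (3R:14900432-14901563, minus strand), used in the ovary, was at 0.369, 0.572 and 0.622 CPM in controls and at 1.48, 1.24 and 0.745 CPM with scute, a change of 1.15 ± 0.37 (adjusted p = 0.0228, edgeR). Neither gene's groups overlapped, although the lowest scute library of RpS5b came close to the highest control. RpS15Ab (2R:10821676-10822399, plus strand), a second copy of the uS8 gene, was at 62.0, 60.2 and 66.2 CPM in controls and at 78.1, 82.0 and 75.6 CPM with scute, a change of 0.32 ± 0.10 (adjusted p = 0.0222, edgeR). RpL37b and RpS19b were called under each of the 17 alternatives that tested them. RpS5b lost its call without control replicate 1 (adjusted p = 0.0852), scute replicate 1 (0.0957) or scute replicate 2 (0.0652). RpS15Ab lost its call without any of those 3 libraries or control replicate 2 (0.0501 to 0.0864), and when members and mitochondrial genes were kept out of the scaling (0.0801).

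The more abundant partners of these genes fell. The log2 change was -1.18 ± 0.16 for RpL37a, -0.74 ± 0.15 for RpS19a, -0.82 ± 0.15 for RpS5a and -0.92 ± 0.14 for RpS15Aa, all called lower by edgeR. RpS19a was not called with total counts (adjusted p = 0.085). The share of the less abundant copy in the counts of its pair therefore rose in each scute library. It went from 0.00309% ± 7.56e-04 to 0.122% ± 0.0372 for RpL37b, from 0.0470% ± 0.00498 to 0.247% ± 0.0122 for RpS19b, from 0.0136% ± 0.00316 to 0.0525% ± 0.00968 for RpS5b and from 1.24% ± 0.0358 to 2.92% ± 0.353 for RpS15Ab (SD, n = 3). With da:da the RpS15Ab share also lay above the controls, at 1.38% to 1.44% against 1.20% to 1.28%. The da:da shares of RpL37b, RpS19b and RpS5b overlapped the controls.

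**Figure D2:**
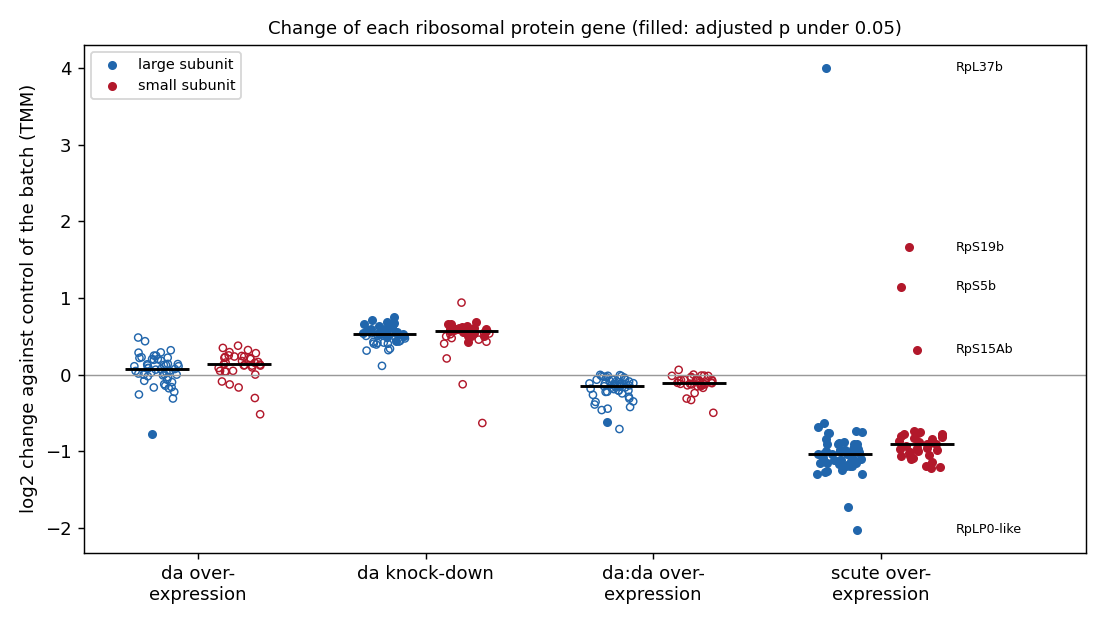
Log2 change against the control of the batch after TMM scaling for each tested member, by subunit; 1 point is 1 gene, filled points passed adjusted p under 0.05 over all genes tested, and black lines are medians. The scute column lies around -0.99, with the 4 genes that rose and RpLP0-like named.

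There were 13 paralogue pairs, of which 8 had both copies among the members. RpL34b made up 50.2% ± 0.788 of the RpL34 counts in batch 2 controls and 64.3% ± 2.90 with scute, without overlap. With da:da it made up 52.5% ± 1.65, likewise without overlap with the controls. Both copies fell with scute, RpL34b by 0.91 and RpL34a by 1.72 on the log2 scale. RpS14b, a tandem copy of RpS14a that encodes an identical protein, went from 25.03% ± 0.745 to 27.2% ± 0.923 of the pair with scute, also without overlap. RpL24-like, the counterpart of the yeast assembly factor Rlp24, stayed within the range of the controls, at 37.0% ± 1.78 against 37.7% ± 3.51. RpLP0-like went from 1.17% ± 0.106 to 0.670% ± 0.0538 of the counts it shares with RpLP0, the stalk base protein.

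The partners RpL7-like, RpL10Aa, RpS10a and RpS28a, which are outside the set, had at most 20 counts in any library. RpL22-like, also outside the set and known from the male germ line, had 35 to 58 counts in batch 2 controls and 59 to 64 with scute, and 166 counts in da knock-down replicate 2 against 2 and 6 in the other knock-down libraries. Control shares differed between the batches for some pairs: RpL34b made up 17.8% ± 2.67 in batch 1 against 50.2% in batch 2, and RpS14b 10.52% ± 0.211 against 25.03%. Read length and layout differ between the batches, and near-identical copies can lose reads that map to both, so control shares of the batches cannot be told apart from the way they were read.

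**Figure D3:**
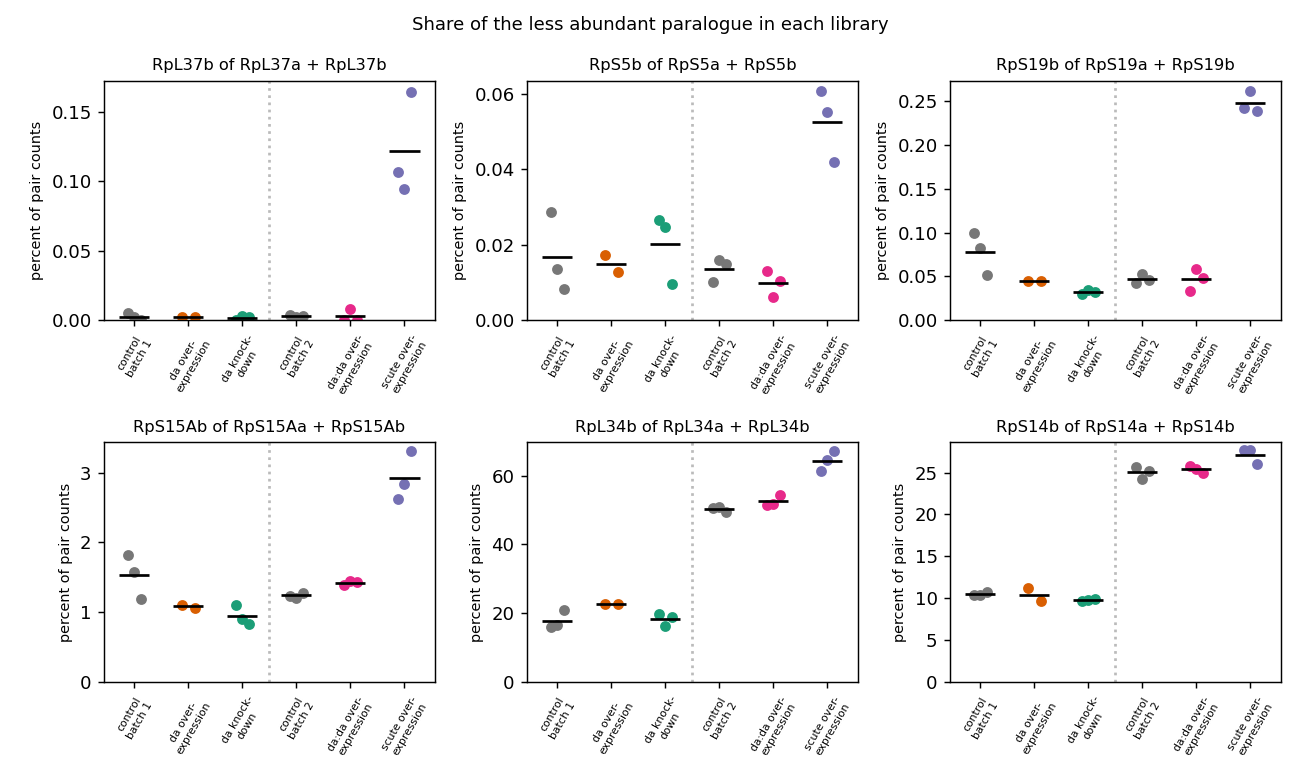
Percent of the counts of a pair that belong to the less abundant or second copy, for 6 pairs in each library; points are libraries, lines are group means, and the dotted line separates the batches. The scute libraries are highest for all 6 pairs.

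To see which members moved against the rest, the whole table was also fitted with each library scaled to its own total of member counts. With scute, 6 members rose and 9 fell on this scale, against 62.6% of all genes tested called higher and 3.91% lower. With a filter at 10 CPM there were 15 higher and 18 lower, and with a replicate block 5 higher and 5 lower. The 4 genes above were among those higher, with RpS15Ab at a log2 change of 1.30 ± 0.15. The pool itself fell, so genes that rose under TMM had to be above 0 on this scale, which is no second test of them. RpL21 rose by 0.34 ± 0.10 and RpL31 by 0.27 ± 0.11 (adjusted p = 0.00954 and 0.0385, edgeR). RpL21 made up 1.56%, 1.65% and 1.56% of member counts in controls and 1.90%, 1.96% and 2.19% with scute, and RpL31 made up 0.600%, 0.583% and 0.565% against 0.706%, 0.680% and 0.719%. Both groups were separate for both genes, so these genes fell less than the pool.

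Among those that fell against the pool were RpLP0-like, at -1.06 ± 0.16, RpL34a, at -0.79 ± 0.15, and RpLP2, RpL24-like, RpL27A, RpL24, RpL6 and RpLP0, at -0.36 to -0.24. Those outside the naming rule were named after their values were seen. The number lower was 3 without control replicate 1, 5 without control replicate 2, 4 without control replicate 3, 5 without scute replicate 1 and 4 without scute replicate 2. The number higher was 10 without da:da replicate 3.

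Genes that act with ribosomes fell with scute too. Of 33 ribosome biogenesis genes 32 were called lower, against 22.2% of all genes tested, with a median log2 change of -1.59. RIOK1, a kinase of late 40S maturation, went from 44.4 ± 3.12 to 6.99 ± 1.19 CPM, a change of -2.67 ± 0.15 (adjusted p = 7.74e-08, edgeR). RpI12, an RNA polymerase I subunit, went from 15.4 ± 0.628 to 2.77 ± 0.228 CPM. Of 36 translation factors 30 were lower and 1 higher, with a median of -0.72. The exception, eEF1alpha2, is a second elongation factor 1 alpha gene and rose by 1.44 ± 0.22, from 4.89 ± 0.501 to 13.3 ± 0.462 CPM. Of 71 mitochondrial ribosomal protein genes 65 were lower, with a median of -0.83.

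Among 18 growth and ribosomal gene regulators, 8 fell and 4 rose with scute, against 22.2% and 22.8% of all genes tested. Myc, the growth-promoting transcription factor, went from 933 ± 72.2 to 323 ± 37.4 CPM, a log2 change of -1.53 ± 0.14 (adjusted p = 3.55e-06, edgeR). Thor, the fly 4E-BP that restrains cap-dependent translation, went from 1025 ± 188 to 174 ± 17.4 CPM, a change of -2.56 ± 0.15 (adjusted p = 8.69e-08, edgeR). Mnt, which competes with Myc for its partner Max, rose by 0.92 ± 0.11.

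Cell type markers were read in the same libraries, where 22.8% of all genes tested were called higher and 22.2% lower. Of 9 enteroendocrine markers 8 were higher and 1, NPF, was lower with scute, with a median log2 change of 4.04 and a summed level of 4662 to 7842 CPM against 3980 to 4392 CPM in controls. The control sum was mostly NPF, which went from 3776 ± 180 to 1811 ± 264 CPM. Of 6 germ-line markers tested 3 were higher, including orb and bam, and the list summed to 15.8 to 20.03 CPM against 9.28 to 9.67 CPM. Of 12 enterocyte markers 4 were higher, including Tsp2A and mesh, and 3 lower, and the list summed to 2094 to 2265 CPM against 1738 to 2801 CPM. Of 6 progenitor markers 2 were higher and 4 lower, summing to 830 to 1118 CPM against 1430.9 to 1514.5 CPM. The part of these in the changes of members was not tested. In bulk samples fewer cells of a type and less RNA per cell cannot be told apart.

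Scute and da:da libraries of the same batch were also compared directly. With scute 81 of 86 members were lower and 3 higher, against 21.2% and 21.4% of all genes tested, with a median of -0.87. The 3 were RpL37b, RpS19b and RpS5b, with log2 changes of 4.39, 1.68 and 1.64, and RpS15Ab was at 0.26 (adjusted p = 0.0609, edgeR). Both this comparison and the previous one rest on the same scute libraries.

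With da:da overexpression 1 member of 86 was called lower and 0 higher, against 6.52% and 5.39% of all genes tested. DESeq2 called 0 higher and 3 lower, and at an unadjusted p under 0.05 edgeR had 0 higher and 4 lower. Shares of all genes by DESeq2 or at an unadjusted p were not computed, here or below, so such counts have no background beside them. The median log2 change was -0.12, close to the -0.01 of all genes tested, and 84 of 86 estimates were below 0. The called gene was RpLP0-like, the counterpart of an assembly factor. It was at 48.3, 45.6 and 39.0 CPM against 72.5, 66.5 and 64.1 CPM, a change of -0.61 ± 0.11 (adjusted p = 0.00253, edgeR). RpLP1, an acidic stalk protein, had the lowest estimate of all members, -0.71 ± 0.24, and did not pass (adjusted p = 0.0793, edgeR). In the authors' deposited table RpLP1 was lower, at -0.69 (adjusted p = 0.0222, the authors' DESeq2). There 2 members were lower and 0 higher, against 9.65% and 8.09% of the genes listed. RpLP1 was picked out after its value was seen. The count of members lower was 2 without da:da replicate 1 or 2 and 4 without scute replicate 3. Scaled to the member total, 0 were higher and 0 lower with da:da, against 4.16% and 1.75% of all genes tested, with 0 higher and 5 lower at an unadjusted p under 0.05 by edgeR. On that scale 1 was lower without da:da replicate 1 and 2 without scute replicate 3.

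With da overexpression 1 of the 85 members tested was lower and 0 were higher, against 9.36% and 13.5% of all genes tested, and the median was 0.12 against -0.02. DESeq2 called 2 higher, and at an unadjusted p under 0.05 edgeR had 3 higher and 1 lower. The called gene was again RpLP0-like, at 40.6 and 38.9 CPM against 65.7, 62.6 and 75.4 CPM in its controls, a change of -0.77 ± 0.14 (adjusted p = 0.00332, edgeR). The groups did not overlap, and the call held under each of the 17 alternatives. The 2 da libraries differed: without replicate 1 the median of the members was -0.13. Members higher numbered 2 without da replicate 2 and 1 without control replicate 3. Scaled to the member total, 2 members were lower and 0 higher, against 5.88% and 9.58% of all genes tested, with 4 higher and 5 lower at an unadjusted p under 0.05 by edgeR. RpLP0-like was at -0.82 ± 0.22. RpL5, a 5S RNA-binding protein of the large subunit, was the other, at 4.55% and 4.69% of member counts against 5.84%, 5.41% and 6.11% (-0.32 ± 0.08, adjusted p = 0.0136, edgeR). On that scale 1 member was lower without control replicate 1, control replicate 2 or either da library.

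No member passed the test of the difference between the da:da and da changes by edgeR, against 2.5% of all genes higher and 4.49% lower. At an unadjusted p under 0.05 there were 1 higher and 3 lower, DESeq2 called 1 lower, and the median difference was -0.17. Without da overexpression replicate 1 that median was 0.049.

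For comparison, 9.36% of all genes tested were lower with da and 6.52% with da:da. With da overexpression 22 of 33 ribosome biogenesis genes were lower and 0 higher, with a median log2 change of -0.62, and with da:da 26 were lower and 0 higher, with a median of -0.61. The 2 comparisons have different controls. Mybbp1A, a nucleolar protein, was lower in both, by 1.20 ± 0.28 with da and 0.95 ± 0.21 with da:da on the log2 scale. The summed level of the list was 2541 to 3119 CPM with da against 3740 to 4277 CPM in controls, and 3913 to 4955 CPM with da:da against 6040 to 7057 CPM, without overlap in either batch. Mitochondrial ribosomal protein genes were lower in 23 of 71 cases with da and in 6 with da:da. Translation factors were 1 higher and 1 lower of 36 with da and 2 lower with da:da, and eEF1delta, a nucleotide exchange subunit, was lower in both, by 0.79 and 0.58.

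Markers were read in these libraries as well. Of all genes tested 13.5% were higher and 9.36% lower with da, and 5.39% and 6.52% with da:da. With da 5 of 9 enteroendocrine markers were lower, 2 of 12 enterocyte markers higher and 1 of 6 progenitor markers higher. The enterocyte and progenitor counts with da were near the share of all genes. The enteroendocrine list summed to 85.0 and 538 CPM against 194 to 255 CPM in controls, the enterocyte list to 1461 and 1708 CPM against 1217 to 1609 CPM, and the progenitor list to 1209 and 1516 CPM against 1093 to 1234 CPM. With da:da 3 of 9 enteroendocrine markers were lower, 2 of 12 enterocyte markers higher and 1 lower, and 2 of 6 progenitor markers higher. The sums were 4681 to 8120 CPM against 3980 to 4392 CPM, 1259 to 2029 CPM against 1738 to 2801 CPM, and 1842 to 2024 CPM against 1430.9 to 1514.5 CPM. NPF alone averaged 5521 ± 1674 CPM with da:da and 3776 ± 180 CPM in controls, so the enteroendocrine sum mostly follows that gene. The part of the markers in the change of ribosome biogenesis genes was not tested.

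Of 18 growth regulators 3 were higher and 0 lower with da, and 2 were higher and 2 lower with da:da. Of all genes tested 13.5% were higher and 9.36% lower with da, and 5.39% and 6.52% with da:da. Akt1, a kinase upstream of TOR, rose by 1.02 ± 0.18 with da and by 1.51 ± 0.11 with da:da. Thor rose by 0.90 ± 0.18 and 0.86 ± 0.14. larp, a translational regulator, fell by 0.51 ± 0.13 with da:da. Myc fell by 0.78 ± 0.14 with da:da, from 933 ± 72.2 to 542.8 ± 100.7 CPM (adjusted p = 0.00307, edgeR). Of 9 genes of the response to ribosome imbalance and stress 1 was higher and 0 lower with da, and 2 were higher and 1 lower with da:da. With scute 0 of them were higher and 4 lower, against 22.8% and 22.2% of all genes tested. With the knock-down 1 was higher and 0 lower, against 11.2% and 9.16%. Xrp1, a transcription factor known from cells lacking a ribosomal protein gene copy, fell by 0.52 ± 0.10 with da:da, while hep, a kinase of the JNK pathway, and crc, the fly ATF4, both rose by 0.46 (SE 0.11 and 0.09).

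**Figure D4:**
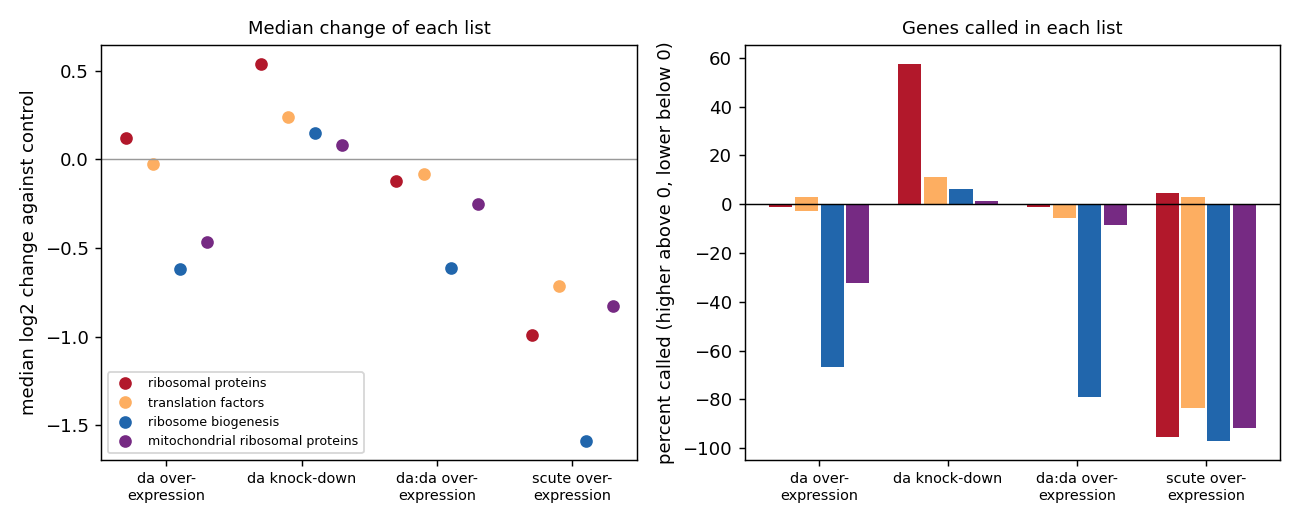
Median log2 change (left) and percent of tested genes called higher (above 0) or lower (below 0) against control (right) for ribosomal protein genes and 3 related lists. With da and da:da the ribosome biogenesis list is at -0.62 and -0.61 while the ribosomal protein genes are at 0.12 and -0.12; with scute all 4 lists are below -0.7.

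With da knock-down many members rose. At TMM scaling 49 of 85 were called higher and 0 lower, against 11.2% and 9.16% of all genes tested, and the median was 0.54. At an unadjusted p under 0.05 there were 77 higher and 0 lower, and DESeq2 called 72 higher. The share of all genes was not computed for either of these counts. The small subunit had 23 of 35 members called and a median of 0.56, and the large subunit 26 of 50 and 0.53. The estimates were above 0 for 83 members, with RpS15Ab and RpS19b the exceptions.

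The largest rises among the called genes were in RpL29, RpL37a and RpS20. RpL29 was at 716, 655 and 766 CPM in controls and at 1006, 1347 and 1234 CPM with the RNAi, a log2 change of 0.75 ± 0.16 (adjusted p = 0.011, edgeR). RpL37a was at 953, 988 and 1202 CPM and at 1575, 1906 and 1657 CPM, a change of 0.71 ± 0.16 (adjusted p = 0.0129, edgeR). RpS20 was at 1862, 1894 and 2394 CPM and at 2831, 3728 and 3358 CPM, a change of 0.69 ± 0.17 (adjusted p = 0.0215, edgeR). In all of them every knock-down library lay above every control.

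The count of members called with the knock-down depended on how libraries were scaled. TMM factors were 0.837 to 0.884 for the knock-down libraries and 1.06 to 1.17 for their controls. With library size taken as total counts, 4 members were higher (RpL29, RpL37a, RpL35A and RpS10b), 2 were lower (RpS15Ab and RpS19b), and the median was 0.18. The median of all genes tested was then at -0.37. Rescaling shifts every gene of a library alike, so the gap between these medians is nearly fixed and is no check of the rise. Upper-quartile scaling left 31 higher, and TMM factors computed without members and mitochondrial genes gave 51. With replicate numbers as a block 36 were higher, and 68 with only the 2 groups fitted, a setting chosen after seeing the data. The TMM count above comes from a fit without pairs, although control and knock-down libraries of the same number correlated at 0.187 to 0.287. Single libraries weighed on the count as well. It was 4 without control replicate 1, 1 without control replicate 2, 29 without knock-down replicate 1, 4 without knock-down replicate 2 and 13 without knock-down replicate 3. The median stayed above 0 in each of these. The authors' deposited table listed 78 of 86 members as higher, against 16.6% of the genes listed there.

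For scute the same change of scaling moved the median from -0.99 to -0.55 and that of all genes tested from 0.05 to 0.49, and 72 members were called lower and 4 higher. TMM factors were 1.17 to 1.22 for scute and 0.862 to 0.907 for controls. For da the median of all genes was at -0.10 with total counts, and for da:da at 0.10, with RpLP0-like the only member called in both.

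**Figure D5:**
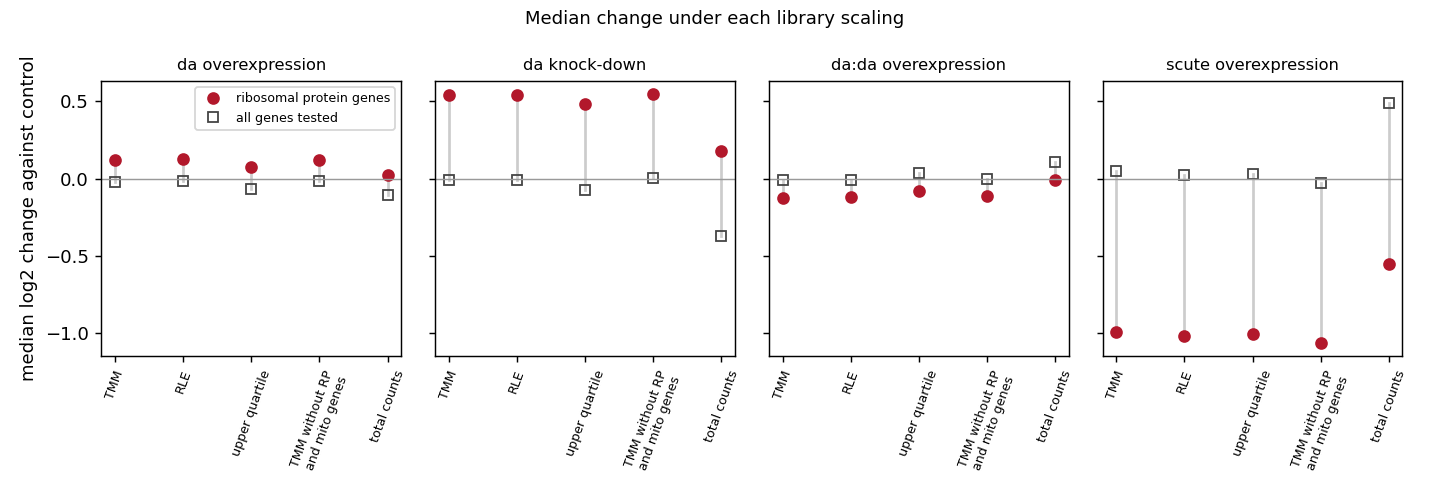
Median log2 change against control of ribosomal protein genes (red) and of all genes tested (open squares) under 5 ways of scaling the libraries. Total counts move both medians together, in the knock-down to 0.18 and -0.37 and with scute to -0.55 and 0.49. Rescaling shifts all genes of a library alike, so the gap between the medians could hardly change and is no check.

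Scaled to the member total, the knock-down had 0 members higher and 4 lower, against 3.60% and 31.8% of all genes tested. At an unadjusted p under 0.05 there were 0 higher and 5 lower. The 4 were RpS19b, at -1.18 ± 0.36, RpS15Ab, at -0.65 ± 0.21, RpL24, at -0.40 ± 0.12, and RpS3A, at -0.30 ± 0.10. RpS3A, a protein of the 40S platform, made up 1.70%, 1.68% and 1.47% of member counts in controls and 1.40%, 1.19% and 1.33% with the RNAi, without overlap. RpL24, whose exons share 21.6% of their bases with an antisense gene, made up 0.520%, 0.552% and 0.489% against 0.432%, 0.389% and 0.361%. None of the 4 was called without control replicate 1 or 2 or without knock-down replicate 2 or 3. The share of RpS19b in its pair was 0.0777% ± 0.0244 in controls and 0.0322% ± 0.00232 with the knock-down, and that of RpS15Ab was 1.53% ± 0.318 and 0.943% ± 0.138. The share of RpS5b was 0.0168% ± 0.0105 in controls and 0.0202% ± 0.00932 with the knock-down, with overlap, and RpL37b had at most 2 counts per library. With da overexpression the share was 0.0448% ± 4.95e-04 for RpS19b and 1.08% ± 0.0271 for RpS15Ab (SD, n = 2), and both libraries lay below the lowest control. These shares are descriptions with no test.

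Against 11.2% of all genes tested, translation factors were higher in 4 of 36 cases, with a median of 0.24, and ribosome biogenesis genes in 2 of 33, Fib, the nucleolar methyltransferase fibrillarin, and CG4038. Myc rose by 0.61 ± 0.17, from 282 ± 32.7 to 431 ± 80.3 CPM (adjusted p = 0.0349, edgeR). Of 12 enterocyte markers 4 were higher and 0 lower, and the list summed to 2393 to 3033 CPM against 1217 to 1609 CPM in controls. Of 9 enteroendocrine markers 6 were lower, against 9.16% of all genes tested. Of 6 progenitor markers 1, Sox100B, was higher, by 0.72 ± 0.15 on the log2 scale. In the same list 2 were lower, esg by 0.53 ± 0.15 and klu by 0.62 ± 0.17. The progenitor list summed to 920 to 1030 CPM against 1093 to 1234 CPM in controls. The part of these in the rise of members was not tested.

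The 2 da manipulations were also set against each other. With da overexpression 16 of 85 members were lower than with the knock-down and 0 higher, against 14.1% and 16% of all genes tested, with a median of -0.42. At an unadjusted p under 0.05 there were 0 higher and 47 lower, and DESeq2 called 35 lower. The count fell to 8 without control replicate 2, 1 without da overexpression replicate 2, 6 without knock-down replicate 1, 3 without knock-down replicate 2 and 5 without knock-down replicate 3. It rose to 50 without da overexpression replicate 1. With total counts 5 were lower and the median was -0.15, with the replicate block 5 were lower, and with only the 2 groups fitted 9 were.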

How the data were processed

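Read counts per gene were deposited for 17 libraries. The authors made them with featureCounts 2.0.2 on exons of BDGP 6.28, annotation release 101, without a strand option, per the file headers, so overlapping antisense genes such as those at RpS9 (50.3% of exon bases) and RpL24 cannot be told apart. Batch 2 was counted by mate. No count column belonged to other samples (0). The authors also deposited log2 fold changes and adjusted p-values, which were used only as theirs.

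R 4.3.3 with edgeR 4.0.16 was used: filterByExpr by group, TMM scaling, 1 mean per group over the libraries of a batch, glmQLFit and glmQLFTest, two-sided, Benjamini-Hochberg over all genes tested, at 0.05. Batch 1 had 9540 genes and batch 2 14190, and 14083 were tested for the difference of da:da and da. Values are mean ± SD, or log2 change ± SE. DESeq2 1.42.0, other scalings and filters, a replicate block and leaving out each library were alternatives. The fit was tested on simulated data.

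Members, gene lists and tests were chosen with earlier results of these data known. Named members were those of 13 paralogue pairs, the 3 largest called rises and falls per comparison at a mean of 10 CPM or more, and the 3 highest and lowest per kilobase. In other lists the 2 largest called changes each way were named. Replicates are separate pools of guts, per the labels. Deviations of control and knock-down libraries with the same number correlated at 0.187, 0.190 and 0.287, so these libraries may be paired. Numbers of the other groups were not taken as pairs. The reported fits have no replicate block and so ignore any pairing. The blocked fit was an alternative. In batch 1 it also blocks da overexpression, whose same-number correlations were -0.279 to -0.0903.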

Additional observations from a re-analysis of the deposited data

How the results depend on the processing

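The count of members lower with scute was 82 under each scaling, filter, block and left-out library, except 72 with total counts. With total counts the knock-down had 4 members higher, 2 lower and a median of 0.18, da against knock-down 5 lower and -0.15, scute a median of -0.55, and scute against da:da -0.54. Upper-quartile scaling gave 31 higher with the knock-down. At 10 CPM or more, 1 was higher with da, 1 with scute and 1 for scute against da:da, and on the scale of the member total 1 was lower with da:da, and 15 higher and 18 lower with scute. That filter left RpL37b, RpS19b and RpS5b untested, so they could not be counted and did not lose a call. With the replicate block the knock-down had 36 higher, and 68 with only the 2 groups fitted, a setting chosen after seeing the data; da against knock-down had 5 lower, da:da 2 lower, and scute 5 lower on the member scale. It changed no other count by over 1.5 times. DESeq2 gave 2 higher with da, 35 lower for da against knock-down, 3 lower with da:da and 1 lower for the difference of da:da and da. With only the 2 groups compared, da against knock-down had 9 lower and da:da 4. Without mitochondrial genes member shares were 38.4%, 37.6% and 42.9% for control, da and knock-down, and 32.8%, 30.8% and 22.1% for control, da:da and scute.

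Leaving out 1 library each gave 1 to 70 members higher with the knock-down, 0 to 2 with da (median -0.13 to 0.32) and 2 to 4 with scute. It gave 1 to 50 lower for da against knock-down (median -0.66 to -0.21), 1 to 4 lower with da:da, and a median of -0.35 to 0.049 for the difference of da:da and da. On the member scale it gave 1 to 2 lower with da, 0 to 4 with the knock-down, 0 to 2 with da:da, and 5 to 10 higher and 3 to 10 lower with scute. The cause was not tested. A fit without 1 da library assumes that the lone library varies like the others. Genes under about 100 counts, such as RpL37b and RpS5b, carry wide counting error.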
